A study of Drosophila melanogaster with 2 samples.

Results

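Odorant (Or), gustatory (Gr) and ionotropic (Ir) receptor genes encode the receptors with which Drosophila smells and tastes. Their binding by a Gsc-eGFP fusion protein was examined in whole embryos. The members were all protein-coding genes of the Ensembl dm6 annotation with a symbol of Or, Gr or Ir followed by a digit: 59 Or, 60 Gr and 60 Ir genes, or 179 of 13968 protein-coding genes. A further 7 pseudogenes with such symbols were not counted. A region was given to the gene with the transcription start site (TSS) nearest to its summit, and a gene with at least 1 region was called occupied. The fusion protein was pulled down from chromatin through its GFP tag and the attached DNA was sequenced (ChIP-seq), in 2 biological replicates of Drosophila melanogaster embryos of 0 to 24 h. All embryos were of the transgenic strain Gsc-GFP, whose insertion targets Gsc, so the study has 1 group. Control libraries were not analysed here.

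Or proteins are odorant receptors that work with the coreceptor Orco, Gr proteins detect sugars, bitter compounds and carbon dioxide, and Ir proteins are relatives of ionotropic glutamate receptors that sense acids, amines, temperature and humidity. Each is typically expressed in a few sensory neurons, some of which form in the late embryo while others appear only in the adult. Gsc is the fly homologue of Goosecoid, a homeodomain transcription factor with a lysine at the position that favours the core word TAATCC. Whole embryos mix all tissues and stages, so binding in a few sensory neurons and binding in no cell cannot be told apart.

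Of the 179 receptor genes, 5 were occupied (2.79%, 95% Wilson interval 1.20 to 6.37), against 8.06% of all protein-coding genes. They were Or43a, Or56a, Gr89a, Gr93a and Ir41a, with 8 regions between them. The strongest of them lay beside gustatory receptor genes on 3R, and the letters of the regions there are shown because they include the only ones found in both replicates' own lists. Gr89a, a receptor gene of bitter-sensing neurons, had a region at chr3R:16497450-16497650 (dm6, plus strand, 100 bp on either side of the summit). Gr93a, needed for the response to caffeine, had a distal region at chr3R:21828232-21828432 and a proximal one at chr3R:21828884-21829084. For contrast, the next lines also give the strongest region of each family on 2L and 3R that missed the threshold, called a candidate. These lay nearest to Or22c (chr2L:2064315-2064515), Gr92a (chr3R:20136861-20137061) and Ir40a (chr2L:22222673-22222873). Capitals mark the words TAATTA and ACAGTG on either strand. TAATCC was searched too and is in none of the lines.
Gr89a: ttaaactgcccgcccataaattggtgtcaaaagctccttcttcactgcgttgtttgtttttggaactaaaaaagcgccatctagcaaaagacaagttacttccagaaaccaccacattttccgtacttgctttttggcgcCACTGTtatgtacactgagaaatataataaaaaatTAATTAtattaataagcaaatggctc
Gr93a distal: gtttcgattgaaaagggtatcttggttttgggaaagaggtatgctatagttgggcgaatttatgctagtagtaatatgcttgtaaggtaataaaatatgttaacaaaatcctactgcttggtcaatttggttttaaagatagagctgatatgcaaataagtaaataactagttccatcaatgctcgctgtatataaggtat
Gr93a proximal: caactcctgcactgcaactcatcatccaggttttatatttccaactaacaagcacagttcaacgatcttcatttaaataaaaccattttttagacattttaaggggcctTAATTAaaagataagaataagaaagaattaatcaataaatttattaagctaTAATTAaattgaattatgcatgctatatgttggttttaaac
Or22c candidate: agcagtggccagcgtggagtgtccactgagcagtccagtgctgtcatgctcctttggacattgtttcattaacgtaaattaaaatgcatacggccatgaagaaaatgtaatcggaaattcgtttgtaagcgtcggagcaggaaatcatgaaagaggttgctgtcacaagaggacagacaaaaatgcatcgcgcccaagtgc
Gr92a candidate: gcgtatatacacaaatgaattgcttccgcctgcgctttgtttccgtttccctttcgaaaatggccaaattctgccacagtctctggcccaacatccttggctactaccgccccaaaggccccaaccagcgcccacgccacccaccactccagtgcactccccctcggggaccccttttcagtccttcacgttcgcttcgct
Ir40a candidate: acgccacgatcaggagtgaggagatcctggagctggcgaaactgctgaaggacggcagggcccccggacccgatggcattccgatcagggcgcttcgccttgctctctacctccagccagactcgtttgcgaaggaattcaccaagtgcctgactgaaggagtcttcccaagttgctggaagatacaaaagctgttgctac

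No receptor gene region held TAATCC within 50 bp of its summit. The count was 0 of 8, which allows a share of up to 37.5%, against 3.67% of all 1470 regions on the arms. Here and below, a count of 0 was taken to allow up to 3, a rough limit and not an exact interval. TAATTA, the core word of most other homeodomain proteins, began 9 bases after the summit of the proximal Gr93a region. This was the single one of 8 regions with the word within 50 bp, against 7.89% of all regions. The word ACAGTG began, as its reverse complement, 40 bases after the Gr89a summit, again in 1 of 8 regions against 6.12% of all. Among the 1827 candidate regions nearest to receptor genes, TAATCC was in 2.79%, against 2.90% of all candidates. These words in so few regions are a description only.

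Few genes were occupied in any of the 3 families. Among Or genes 2 of 59 were occupied (3.39%, 95% interval 0.935 to 11.5), among Gr genes 2 of 60 (3.33%, 0.919 to 11.4) and among Ir genes 1 of 60 (1.67%, 0.295 to 8.86). The intervals overlap, and a difference between the families was not detectable with so few occupied genes. Candidate regions are those of the ranked list below the threshold of the thresholded list, and a gene with more of them has more chances to be nearest to a region. Receptor genes had a median of 5 candidates, against 3 over all genes. Other genes in the same classes of candidate number, called genes with as many candidates here and below, were occupied in 10.02%. For 179 genes this comes to 17.9 genes against the 5 observed. By family the matched share was 11.4% for Or, 8.61% for Gr and 10.1% for Ir. The top class, over 25 candidates, is open-ended. Its 21 receptor genes, 12 of them Or genes, had at most 115, while other genes had up to 1728. The match is loose there, and its effect on the matched shares was not tested. The ratio of observed to matched share was 0.298 for Or, 0.387 for Gr, 0.165 for Ir and 0.279 for all families. No test was made, since genes of 1 genome are not replicates and the study has no second group.

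**Figure D1:**
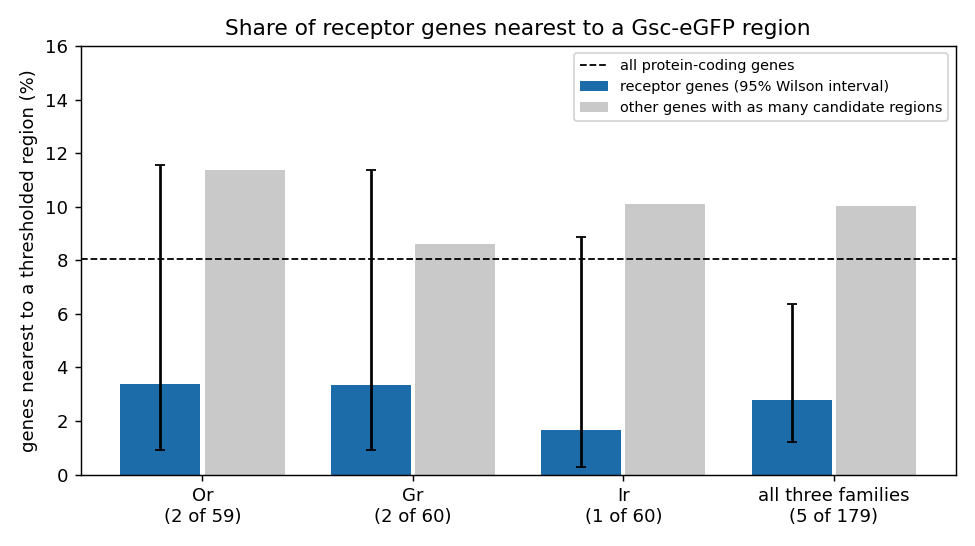
Percentage of genes nearest to at least 1 thresholded region in each receptor family (blue bars, whiskers are 95% Wilson intervals), beside other protein-coding genes with as many candidate regions (grey bars) and all protein-coding genes (dashed line, 8.06%). The blue bars lie at 3.39%, 3.33%, 1.67% and 2.79%, all below their grey bars. The Or and Gr whiskers reach past their grey bars and the Ir whisker and that of all families do not. The whiskers treat genes as independent, although 82 of the 179 lay within 10 kb of another receptor gene, so this is no test.

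All occupied members had at least 5 candidates, the median of the receptor genes. Gr89a had 5, Gr93a 11, Or56a 12, Or43a 28 and Ir41a 105. None of the 14, 18, 18 and 9 members with 1, 2, 3 and 4 candidates was occupied. Other genes in those classes were occupied in 9.06%, 7.54%, 8.74% and 8.45%. Members with over 25 candidates numbered 21, and 2 of them, Or43a and Ir41a, were occupied, against 24.1% of other genes in that class. The 28 members without a candidate were all unoccupied, among them Gr10a and Gr64b, whose start sites are shared with Or10a and Gr64c, the genes their regions were counted for, and 1.86% of other genes without candidates were occupied. Candidates were missing from long stretches of the arms. Stretches of over 5 kb between neighbouring candidate summits made up 37.5% of the arms and held a TSS of 44.8% of protein-coding genes, but of only 34 receptor genes (19.0%). None of these 34 was occupied, which allows a share of up to 8.82%, against 5.79% of all genes in such stretches. Outside them 5 of 145 receptor genes were occupied (3.45%), against 9.90% of all genes there. Thresholded regions were less dense inside the stretches, at 6.31 per Mb against 13.4 per Mb outside. The cause of the stretches was not tested, and the lists do not tell whether regions could have been called there. A gene without a candidate is therefore a gene without one in the ranked list used here.

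Gr89a had the strongest region of any receptor gene. The gene lies on 3R from 16497817 to 16498959, on the minus strand, and the region (3R, 16497382 to 16497717) had its summit 1409 bp from the TSS and 267 bp beyond the 3′ end, in intergenic sequence. The next TSS of a protein-coding gene was that of Cad89D, a cadherin gene, at 2128 bp. Signal values are the authors' own for each region, and no source used here gives their scale. The value was 138 in the list of both replicates, higher than in 68.7% of the 1470 regions. In the replicates' own lists it was 75.5 and 71.7, a mean of 73.6 ± 2.74 (SD, n = 2), so the replicates lay close together. The region passed the threshold in each replicate's own list.

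Gr93a had a pair of regions upstream of its TSS, with 652 bp between their summits. The gene lies on 3R from 21832503 to 21834013 on the plus strand, at one end of a group with Gr93b, Gr93c and Gr93d. The distal region (3R, 21828164 to 21828499), 4171 bp upstream, had a signal of 125, and 55.7 and 66.0 in the replicates. Their mean was 60.8 ± 7.33 (SD, n = 2), and both replicates' own lists held it. The proximal region (3R, 21828816 to 21829151), 3519 bp upstream, was weaker at 65.8, with 40.7 and 26.6 in the replicates and a mean of 33.7 ± 9.99 (SD, n = 2). It was in neither replicate's thresholded list. Both lay in intergenic sequence, 5658 and 6310 bp from the TSS of CASK, a gene for a scaffold protein of the membrane-associated guanylate kinase family. No thresholded region was assigned to Gr93b, Gr93c or Gr93d, and the last pair had no candidates either.

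**Figure D2:**
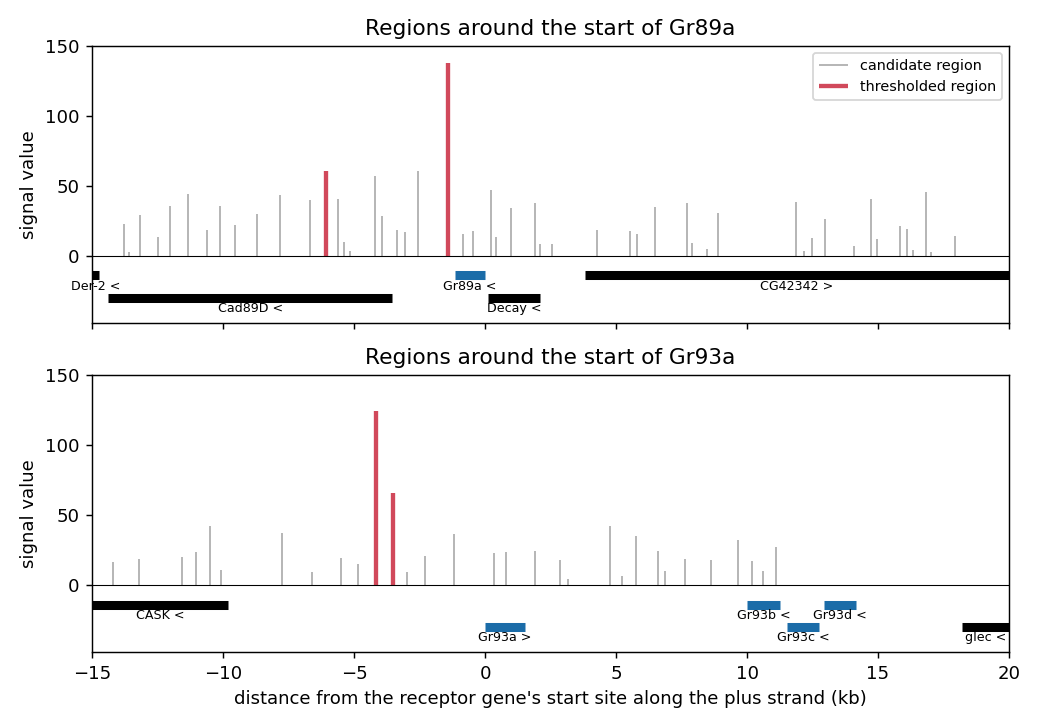
Signal value of each region (y axis) against the distance of its summit from the TSS of Gr89a (top) or Gr93a (bottom), in kb along the plus strand. Red lines are thresholded regions and grey lines candidates; bars below are genes with their direction, receptor genes in blue. The Gr89a region stands at 138 beside the end of the gene, the other red line of that panel (60.4) was nearest to Cad89D, and the Gr93a regions at 125 and 65.8 lie more than 3 kb upstream, above all candidates of that window.

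The single Ir gene with regions, Ir41a, is a receptor gene of antennal neurons that respond to amines. It is by far the longest member, at 104437 bp (2R, 4917519 to 5021955), and had 105 candidates, more than any other Ir gene. Its 3 regions lay in introns, 54817 to 66421 bp downstream of the TSS. The region at 4982973 to 4983308 had a signal of 87.6, with 44.2 and 48.3 in the replicates. The region at 4972168 to 4972503 had 66.5, with 35.8 and 35.6, and that at 4983772 to 4984107 had 58.3, with 38.5 and 35.1. The replicates lay close together in each, with means of 46.2 ± 2.93, 35.7 ± 0.105 and 36.8 ± 2.41 (SD, n = 2), although only the last region was in replicate 1's thresholded list and none was in that of replicate 2.

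All 3 Ir41a summits fell inside annotated transposable elements, 1 of them in Max, 1 in overlapping copies of Doc3 and Rt1b and 1 in Rt1b. Over all thresholded regions on the arms, 1.29% of summits did so, and over candidates 1.71%. The candidates of Ir genes were inside transposable elements in 13.6%, those of Or genes in 0.993% and those of Gr genes in none. The strongest candidate of Ir40a, a humidity receptor gene, whose sequence is shown with the others, also lay in such elements. How the authors treated reads that match several places is not given in the sources used here, and its part in these regions was not tested.

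Each occupied Or gene had a single region, and that of Or43a was the weakest of the 8. Or43a, an antennal receptor gene for benzaldehyde and related odours (2R, 7232840 to 7234913, minus strand), had its region in its own coding sequence, 846 bp downstream of the TSS (7233899 to 7234234). The signal was 57.1, with 38.1 and 19.3 in the replicates and a mean of 28.7 ± 13.3 (SD, n = 2), so replicate 1 was well above replicate 2 (log2 ratio of replicate 2 to replicate 1 -0.98). This region was absent from the conservative list and from both replicates' thresholded lists. Or56a, the receptor gene for geosmin (2R, 19769461 to 19771233, minus strand), had a region 5066 bp upstream (19776131 to 19776466), between it and Obp56g, whose TSS was 7744 bp away. Its signal was 65.8, with 28.8 and 40.4 in the replicates and a mean of 34.6 ± 8.17 (SD, n = 2). It was in the conservative list, as were 7 of the 8 regions, but in neither replicate's own thresholded list.

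**Figure D3:**
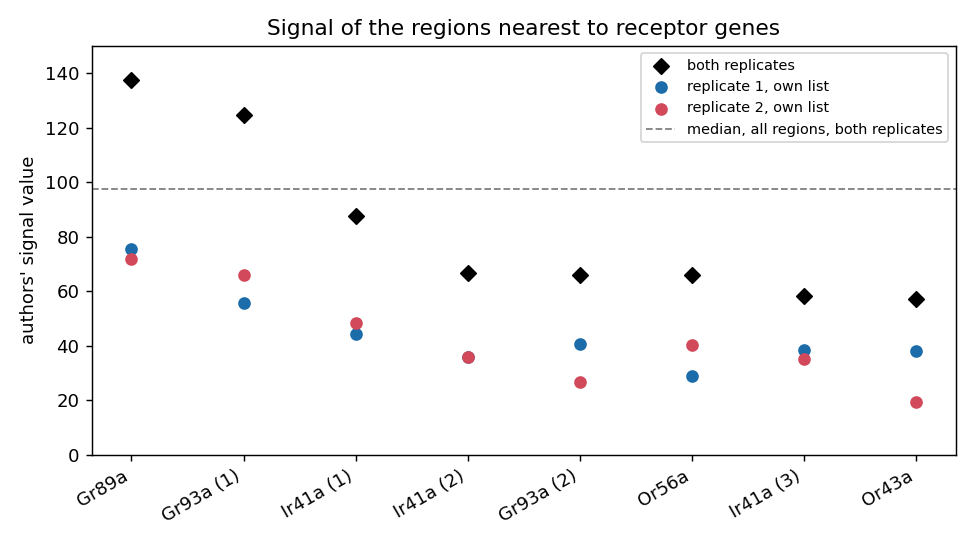
Signal value (y axis) of the 8 regions nearest to receptor genes, ordered by strength; diamonds are the list of both replicates and circles each replicate's own ranked list. Only the Gr89a region and the stronger Gr93a region lie above the median of all regions (dashed line, 97.4), and the replicates are farthest apart at Or43a.

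As a group the 8 regions were weaker, farther from start sites and richer in GC than most. Their median signal was 66.2, against 97.4 over the 1470 regions, and they ran from 57.1 to 138 where all regions ran from 2.03 to 1323. None lay within 500 bp of a TSS, where 36.2% of all regions lay, and their median distance was 4618.5 bp against 1373 bp. Both replicates' own thresholded lists held 2 of the 8 and neither list held 5. Those lists are shorter, with 1067 and 843 regions on the arms. The share of all 1470 regions held by both was not counted, so these counts do not set the 8 apart. Median GC within 50 bp of the summit was 46.04%, a level that 19.2% of all regions reached, against medians of 33.7% over all regions and 48.5% over candidates. The Gr regions had 39.6%, 30.7% and 23.8%, while the Ir41a regions lay between 49.5% and 51.5%, Or56a at 42.6% and Or43a at 61.4%. These regions come from 5 genes, so Ir41a alone sets 3 of the values.

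**Figure D4:**
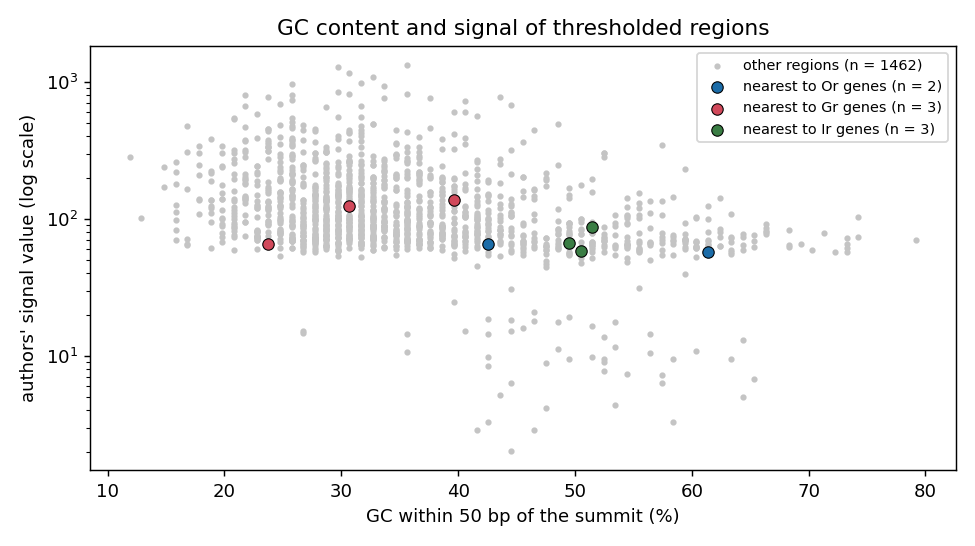
Signal value (log scale) against GC content within 50 bp of the summit for the 1470 thresholded regions on the arms, with those nearest to Or, Gr and Ir genes in colour. The Gr regions lie at 23.8% to 39.6% GC, on both sides of the median of all regions at 33.7%, and the Ir and Or regions lie at 42.6% to 61.4% and at signals of 87.6 or less.

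Seen from the genes rather than the regions, Or and Ir start sites lay far from thresholded summits. The median distance from a start site to the closest summit, whichever gene it was nearest to, was 59518 bp for Or, 61347 bp for Ir and 23133 bp for Gr, against 31731 bp for all protein-coding genes. Compared with the median of other genes with as many candidates, 42 of 59 Or genes and 45 of 60 Ir genes were farther, but only 26 of 60 Gr genes. Neighbouring receptor genes lie at similar distances, as Or33a, Or33b and Or33c do, but each was counted separately. The difference between families was not tested. No receptor gene had a summit within 500 bp of a start site. The count of 0 of 179 allows a share of up to 1.68%, against 5.34% of all genes and 6.04% of other genes with as many candidates. Within 10 kb there were 4 Or genes, 12 Gr genes and 7 Ir genes (6.78%, 20% and 11.7%), where matched genes had 24.7%, 25.8% and 24.97%.

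**Figure D5:**
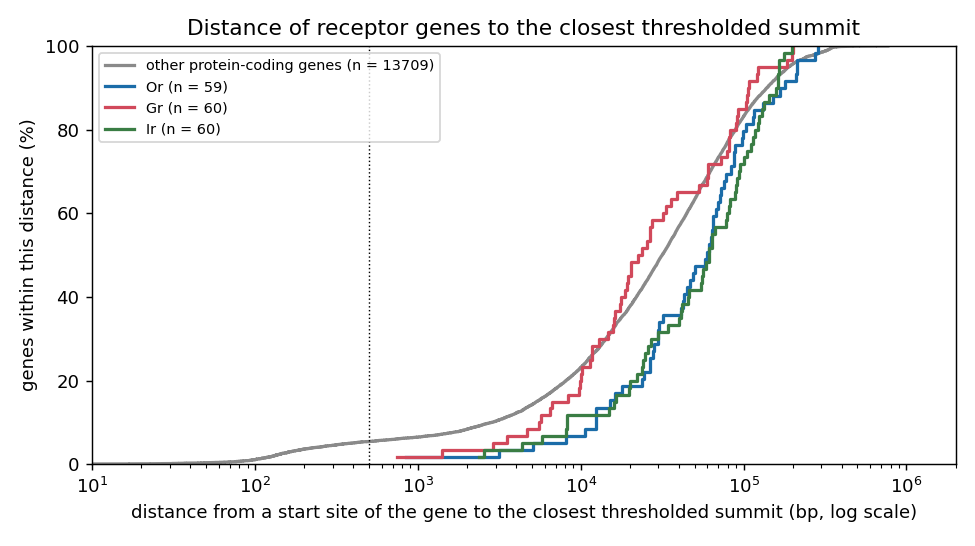
Cumulative percentage of genes (y axis) by distance from a start site to the closest thresholded summit (x axis, log scale) for Or, Gr, Ir and other protein-coding genes on arms with a thresholded region. The dotted line marks 500 bp; the receptor curves start to its right, at 746 bp for Gr, 846 bp for Or and 2382 bp for Ir, and the Or and Ir curves lie below the grey curve up to and past their medians of 59518 and 61347 bp.

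Of the 23 receptor genes with a summit within 10 kb, 19 had it nearest to another gene, and in 12 of these the region lay within 500 bp of that neighbour's TSS. A summit nearest to another gene is common over all genes, of which 3191 had a summit within 10 kb but only 1126 were occupied, at any distance. The shares over all genes that match the 19 of 23 and the 12 were not counted. Some members shared a region, so the 19 genes had 16 distinct regions, 9 of them within 500 bp of another TSS. The strongest of the 16 was beside Ir25a, the widely used Ir coreceptor gene. It had a signal of 603, the 25th highest of the 1470, with 353 and 247 in the replicates, and lay 146 bp from the TSS of the neighbouring gene tank and 2553 bp upstream of that of Ir25a. A region with a signal of 178 lay 130 bp from RpL34b, a ribosomal protein gene, and 3166 bp from Or85f. Gr32a, a receptor gene for bitter compounds and male pheromones, had a region 746 bp from its TSS that was 207 bp from that of Idua. Its signal was 59.6, with 33.1 and 33.6 in the replicates. Gr64f, Gr64e and Gr64d, of the sugar receptor cluster on 3L, shared a region with a signal of 99.3 that was 38 bp from the TSS of CG11593. Gr59e and Gr59f likewise shared one of 143 at wmd, 68 bp from its TSS.

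A list of 27 genes for coreceptors and for receptors of carbon dioxide, sugars, bitter compounds, temperature, humidity and larval odours, named whatever their values, held 0 occupied genes. So short a list says little against 8.06% of all genes, and occupied members with known ligands, such as Gr93a and Or56a, are not on it. Orco, the coreceptor of the Or family and no member by its symbol, had 10 candidates, the strongest with a signal of 38.1, and its closest thresholded summit was 75787 bp away. Of the Ir coreceptor genes, Ir25a had 5 candidates up to 48.0, Ir76b 6 up to 46.2 and Ir8a 9 up to 34.0. The carbon dioxide receptor genes Gr21a and Gr63a had candidates up to 41.4 and 45.8, at 60592 and 32056 bp from the closest thresholded summit. Among sugar receptor genes the strongest candidate was at Gr64e (32.7), while Gr5a had 20.02, Gr61a 28.2, Gr64a 16.2, Gr64c 24.8, Gr64d 27.5 and Gr64f 32.2. Gr43a, a fructose receptor gene, had no candidate, and the closest was 5382 bp away. Gr64b shares its start site with Gr64c, so that regions nearest to both were counted for Gr64c, and a candidate lay 162 bp from that site.

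Of the bitter receptor genes, Gr33a had 6 candidates up to 49.8 and Gr66a none, its closest ranked summit being 13962 bp away. Gr28a and Gr28b, with roles in taste, light and warmth sensing, had candidates up to 46.5 and 52.3. Of the temperature and humidity receptor genes, Ir93a reached 42.1 and Ir40a 60.2, whereas Ir21a and Ir68a had no candidate in the ranked list, which held its closest ones 120686 and 60012 bp away. Of the larval odorant receptor genes, Or47a reached 55.8, Or42b 40.4 and Or94b 25.7, and Or42a had no candidate.

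Below the threshold, the strongest candidates of receptor genes had signals close to those of other genes. Their strongest candidates had a median signal of 37.7 (quartiles 27.2 and 47.5), against 38.0 (28.9 and 47.0) over all genes with a candidate. Of the 151 receptor genes with a candidate, 71 (47.0%) were above the median of other genes with as many candidates. The 3 highest among the unoccupied genes of each family were, in order of signal, Ir60a at 64.8, Or22c at 63.2, Or59a at 61.1, Gr92a at 60.9, Ir40a at 60.2, Ir94e at 58.2, Or45a at 58.0, Gr22d at 54.7 and Gr23a at 53.6. Ir60a had 34.6 and 21.5 in the replicates, and its scaled score was 728, short of the 830 at which the thresholded list begins. Each of these 9 candidates was absent from both replicates' thresholded lists and from the conservative list. At 64.8 the strongest was above 99.8% of all candidates.

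A candidate summit lay within 500 bp of a TSS in 127 of 179 receptor genes (70.9%), against 45.2% of all genes and 57.3% of other genes with as many candidates. By family it was 43 of 59 Or, 43 of 60 Gr and 41 of 60 Ir genes. Of the 1827 candidates, 45.0% were intergenic, against 32.2% of all candidates, 24.8% intronic against 37.9%, 17.1% in coding sequence away from promoters against 19.3% and 11.5% in promoters against 8.40%. Only 27.0% lay inside the receptor gene they were nearest to, against 42.8% over all genes, and in Or genes it was 13.6%. The most candidates of all receptor genes were at Or98a (115), Ir41a (105), Or98b (69) and Or67d (62), the last a receptor gene for the male pheromone cVA. The other genes among the 3 with most candidates in their family were Gr92a (46), Ir20a and Ir56a (44 each), Gr2a (40) and Gr68a (26), a male taste receptor gene.

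Other genes of the chemosensory system were counted in the same way. Of 82 accessory genes, which include odorant-binding proteins, CheA and CheB proteins, Snmp1, Snmp2 and signal transduction genes, 6 were occupied (7.32%, against 8.50% of genes with as many candidates). The strongest region was in an intron of norpA, a phospholipase C gene of sensory transduction, with a signal of 358 and 136 and 221 in the replicates. Of the 51 odorant-binding protein genes 3 were occupied (5.88%, against 8.998%), Obp56h (114.9), Obp56i (85.7) and Obp28a (80.5), and CheA75a (86.0) and CheA29a (69.5) completed the list. Of 18 genes that control chemosensory neuron fate or receptor choice, 3 were occupied (16.7%, against 13.7%): ems (119), ct (102) and Eip93F (75.4). The ct region of 102 and the Obp28a region had signals of 40.7 and 44.9 in replicate 1. Neither overlapped a region of replicate 2's ranked list. Of the 7 rhodopsin genes, a visual receptor family taken for comparison, 0 were occupied, where genes with as many candidates had 11.6%. With only 7 genes, a count of 0 does not differ detectably from that share.

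The Or and Ir counts changed with the list used. In the conservative list 1 Or gene and 1 Ir gene were occupied. The replicates' own lists are shorter, with 1067 and 843 regions on the arms against 1470. The share of all occupied genes that they keep is not given here, so losses there do not set these families apart. With replicate 1 or replicate 2 alone no Or gene was occupied, with replicate 2 alone no Ir gene was, and both Gr genes remained with either replicate.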

How the data were processed

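Per the labels, chromatin was sonicated, with a size range of 200 to 800. The authors deposited regions on dm6, ranked by the irreproducible discovery rate (IDR) or thresholded on it, for each replicate and for both together. Each region carries the authors' signal value, which describes and ranks regions within a list, and a scaled IDR score. Neither aligner nor peak caller is given in the sources used here. There are no read counts, so depth is unknown, and intervals cover counting error over genes only. Of the thresholded lists of both replicates, the larger was used and the conservative one was an alternative. Of its 1655 regions, 1470 lay on the 7 arms and 185 on other sequences, which got no gene. Its lowest score, 830, bounds the 115913 candidates, which overlap no thresholded region.

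Genes and start sites came from the Ensembl annotation (release 115). Bases were read from the RefSeq copy of the Release 6 genome, the assembly of dm6. Genes were matched in 11 classes of candidate number. Replicate values came from the region with the longest overlap in each replicate's ranked list. The 16 unnamed columns of the ranked lists were left out. Words were searched within 50 bp and 100 bp of summits. Named genes were the occupied members, per family the 3 unoccupied ones with the strongest candidates and the 3 with most candidates, and receptors of known role; the members within 10 kb of a summit were chosen after their values were seen, as was the word ACAGTG. Members and lists were chosen with earlier results of these data known. Scripts were tested on simulated data and run with Python 3.11.15, pandas 2.3.3 and scipy 1.17.1. No p-value was computed. Alternatives covered the list, the threshold, the assignment and the background.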

Additional observations from a re-analysis of the deposited data

How the results depend on the processing

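The share of receptor genes occupied stayed below that of genes with as many candidates in all 12 alternatives for all families together (ratio 0.279, range 0.184 to 0.350) and for each family. Leaving out a replicate gave 0.184 to 0.224 for all families, 0.491 to 0.624 for Gr (0.387), 0 to 0.221 for Ir (0.165) and 0 for Or (0.298), with 2 Gr genes, 0 to 1 Ir genes and 0 Or genes. The median signal (66.2) was then 55.7 to 68.8, on the scale of single replicates, whose lists had medians of 71.6 and 67.6 against 97.4 for the list of both, so these values do not bear on the 66.2, and the median distance (4618.5 bp) 2801 to 4165 bp. In the conservative list 1 Or gene was occupied, the ratio was 0.158 for Or and 0.236 for all, and the median distance 29942 bp. In the stronger 50% of regions no Or and no Ir gene was occupied (0 each), the ratios were 0 for both, 0.675 for Gr and 0.204 for all, and the medians were 131 and 2790 bp. Keeping only regions at most 2 kb from the start site, 1 Or, 1 Gr and 0 Ir genes were occupied, the ratios were 0.295, 0.267, 0 and 0.185 for all, the medians were 97.4 and 1128 bp, and 1 region was in both replicates. With gene bodies and 5 kb upstream, 1 Or and 4 Ir genes were occupied. The ratios were then 0.134 for Or, 0.522 for Ir and 0.350 for all, and the medians 77.7 and 3519 bp. Of those regions 27.3% lay within 500 bp of a protein-coding TSS. These were the start sites of the neighbours Idua, tank and PIG-A, at 207, 146 and 80 bp, and not those of receptor genes. With the 5′ end of the gene only, Ir48c was added, giving 2 Ir genes and ratios of 0.299 for Or, 0.320 for Ir and 0.327 for all. With start sites of noncoding genes as well, the ratios were 0.348 for Or and 0.319 for all. For Or the ratio was 0.298 with 1 region kept where regions overlap, 0.283 with classes by all ranked regions, and 0.304 with only genes that have a candidate. Outside the stretches without candidates, an alternative chosen after seeing the data, it was 0.354 for Or and 0.334 for all. With only the strongest region of each gene, also chosen later, the median signal was 87.6. The Or count, at 1 region a gene, changes with any 1 region, and the detection of weak binding is limited by a depth that is unknown.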

Other observations

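Many receptor genes lie next to one another. Within 10 kb of another receptor gene lay 82 of the 179, of which 1, Gr93a, was occupied, and of the other 97, which stand apart, 4 were. Over all protein-coding genes 8.06% were occupied, and counts of 1 and 4 are too small to compare the groups. The clustered genes had a median of 4 candidates and the others 5. Gr genes were clustered most often, 35 of 60, then Ir genes, 30 of 60, and Or genes, 17 of 59. Of all receptor genes, 30 lay wholly inside another protein-coding gene, such as Or71a in Plp and Ir56a in the serotonin receptor gene 5-HT1A. Of these 30, 0 were occupied, against 8.06% of all genes. By the rough limit of 3 used above, this 0 allows a share above 8.06%, so the 30 are not set apart. Of the 30, 5 lay inside another receptor gene, among them Gr10a and Or10a and also Gr64b and Gr64c, which share their extent in the annotation. The receptor genes were spread over 2L (31), 2R (46), 3L (35), 3R (42) and X (25), and the occupied ones were on 2R (3) and 3R (2). Of all protein-coding genes, 8.43% were occupied on 2L, 7.36% on 2R, 8.03% on 3L, 7.60% on 3R and 9.52% on X.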
